A study of Mus musculus with 4 samples.

Results

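The subject is a single chromatin immunoprecipitation sequencing (ChIP-seq) library, H3K27me3 in mouse embryonic fibroblasts (MEF), 1 of the 4 libraries of the series, chosen by its label and read at 5 bin widths of 1, 5, 20, 100 and 500 kb. MEF are connective tissue cells grown from mouse embryos. They were cultured in DMEM with serum, and their strain, embryo age and the number of embryos behind them were not given in the labels. The chromatin was precipitated with the Abcam antibody AB6002. The libraries set beside it are H3K4me3 and H3K9me3 of the same kind of cells, from the same flow cell, with no treatment named in any of them. H3K9me3 of secondary MEF, fibroblasts from chimeric embryos that carry doxycycline-inducible Klf4, Sox2 and Oct4, entered only where a bin was checked for reads in all libraries. Each group holds 1 library, so nothing below has a replicate check, no test between marks was possible, and the spread over the 19 autosomes is given as a description. Positions are on mouse build mm8. An annotation of that build was not used here, which is why regions carry positions in place of gene names and why the cell type was not checked against marker genes.

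H3K27me3 is the trimethylated form of lysine 27 on histone H3. It is written by Polycomb repressive complex 2, whose EED subunit binds the mark and stimulates the EZH2 methyltransferase, so that the mark can extend from nucleation sites into neighbouring nucleosomes. It is known for repressed developmental genes, such as Hox clusters, in fibroblasts. H3K4me3 marks the promoters of active and poised genes, and H3K9me3 marks heterochromatin.

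The library held 9559012 autosomal reads with a single location, at 8963279 distinct positions and strands (93.8%), which were counted once each. For H3K4me3 and H3K9me3 these distinct reads numbered 10989113 and 8533453. There were 4.15 H3K27me3 reads in a mean 1 kb bin and 1909 in a mean 500 kb bin. A level is the number of reads per covered kb divided by the library's own mean, where a 1 kb bin is covered if any of the 4 libraries has a read there. Calls required a level of 2-fold and a one-sided Poisson value, adjusted by Benjamini-Hochberg, under 0.001. In 47 bins of 5 kb all 4 libraries stood at 5-fold or more, and these held 0.227% of the H3K27me3 reads. Intervals are 95% Poisson or binomial intervals and cover counting error only, since PCR copies carry no molecular identifiers.

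Most H3K27me3 reads lay outside any domain or island, and domains held more reads than islands. Called 5 kb bins, 44273 of 442168 (10.0%), were joined across gaps of up to 1 uncalled bin into 12735 runs. Runs of 20 kb or more, here called domains, numbered 3532 and held 29.0% of the reads (95% interval 28.98% to 29.04%) on 8.12% of the covered sequence. Shorter runs, here called focal islands, numbered 9203 and held 8.82% (8.80% to 8.84%) on 3.13% of it. The rest of the autosomes held 62.2% of the reads. The mean level was 3.57-fold in domains, 2.82-fold in focal islands and 0.701-fold in the rest. Measured above the level of the rest, domains carried 77.9% of the excess reads and focal islands 22.1%. These shares depend on threshold and depth. With calls held to 3-fold and an adjusted value under 1e-06, domains held 14.9% of the reads and the rest 77.3%, and with 50 kb as the least domain length domains and islands held 18.9% each, so that domains no longer held more. With 50% of the reads, domains held 21.5%. No gap in levels marks the threshold, as 10058 bins lay between 1.8-fold and 2-fold and 7764 between 2-fold and 2.2-fold.

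The same library can be read as 4 layers stacked on each other. The first is a flat floor, set at the 10th percentile of the 500 kb background, which stood at 0.247-fold and accounted for 24.3% of the reads. The second is the local background of each 500 kb bin above that floor, taken from bins outside runs and extended beneath them, with 50.4%. Domains above their local background added 19.8% and focal islands 5.55%. The broad layer was the largest of the 4, and where the floor is set is a choice. With the floor at the 1st percentile, it held 14.9% and the broad layer 59.8%, while both layers of runs are the same by construction. H3K4me3 was divided otherwise, with 37.4% in focal islands, 16.6% in domains, 32.8% in the broad layer and 13.2% in the floor. H3K9me3 had 6.64% in domains, 4.33% in focal islands, 53.0% in the broad layer and 36.02% in the floor. Of these 3 libraries, H3K27me3 had the largest layer of domains and H3K4me3 the largest of focal islands. No input library was used here, so how much of the floor and of the broad layer is the mark was not tested.

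**Figure D1:**
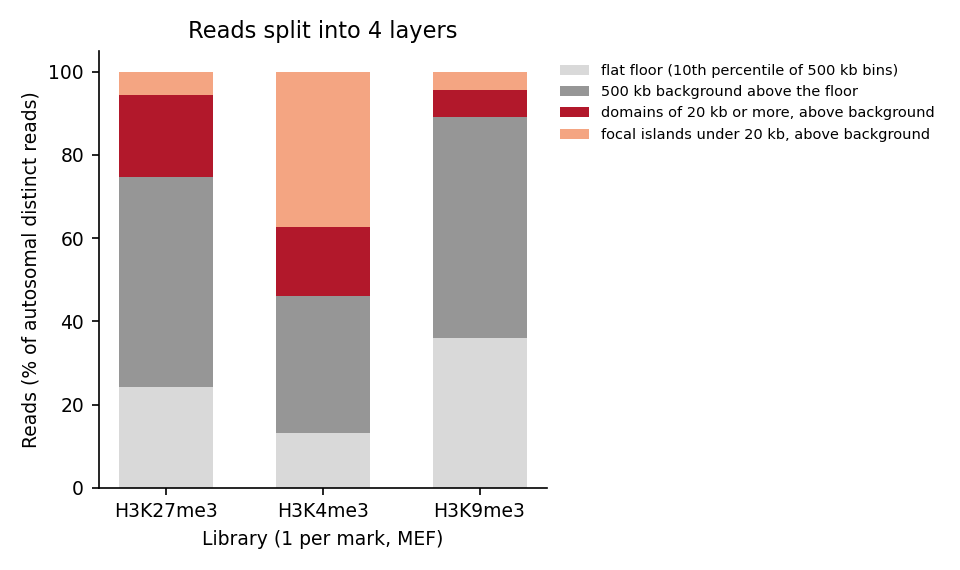
Stacked bars of the share of autosomal distinct reads (%) in a flat floor, the 500 kb background above it, domains and focal islands, with 1 MEF library per bar. H3K27me3 has 19.8% in domains and 5.55% in focal islands above the local background, and H3K4me3 has 16.6% and 37.4%.

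Single-bin islands were the most frequent runs. Of the 12735 runs, 6100 (47.9%) were a single 5 kb bin, and these held 3.71% of the reads at a mean of 2.64-fold. Runs of 20 to 45 kb numbered 2420 and held 10.1%, and those of 50 to 95 kb numbered 753 and held 8.19%. From 100 kb to under 200 kb there were 293 runs (2.30% of all runs) with 7.23% of the reads, and the 66 runs of 200 kb or more (0.518%) held 3.49%. The median domain was 35 kb long and the 90th percentile 100 kb. The mean level rose with run length, from 2.64-fold at 5 kb through 3.19-fold at 20 to 45 kb to 4.12-fold at 200 kb or more. In H3K4me3 it was lower in long runs, 8.63-fold at 5 kb and 6.66-fold in the 15 runs of 100 kb or more, and in H3K9me3 it moved little, from 2.35-fold to 2.68-fold. No H3K4me3 run reached 200 kb, against 66 for H3K27me3 and 20 for H3K9me3. H3K9me3 runs of 20 kb or more carried H3K27me3 at 3.57-fold and H3K9me3 at 2.49-fold, so they lay where H3K27me3 was high as well. Length and level were set by the same calls, so the rise is a description of the runs.

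**Figure D2:**
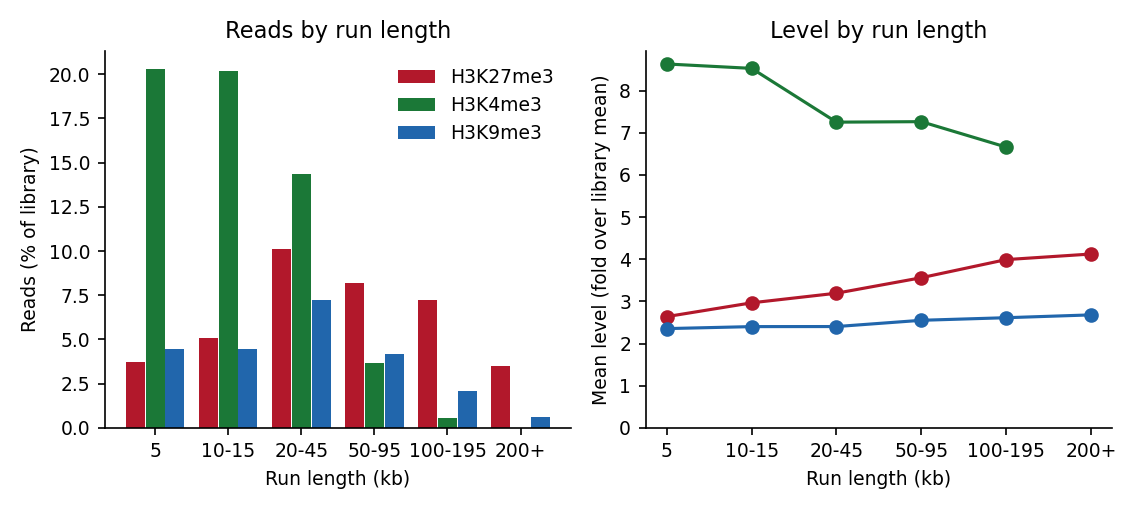
Left, share of each library's reads (%) in runs of called 5 kb bins by run length (kb), and right, mean level (fold over the library mean) of those runs, for the 3 MEF libraries. H3K27me3 levels go from 2.64-fold in 5 kb runs to 4.12-fold in runs of 200 kb or more, and most of the H3K4me3 reads that lie in runs are in runs of 5 to 15 kb.

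The strongest bins sat inside domains more than in islands. The highest 0.1% of 5 kb bins, 449 bins of 13.8-fold or more, were in domains in 93.1% of cases and in focal islands in 6.90%. Domains held 7.96% of all bins and islands 3.07%. Runs are built from these same levels, so bins this high lie in runs by construction, and the split is a description. Of the highest 10%, 70.6% were in domains and 29.3% in islands. Their cutoff of 2.02-fold was also the lowest level among called bins, so this is nearly the split of the called bins themselves. A bin of 10-fold or more was found in 20 of 6100 runs of 5 kb (0.328%), in 249 of 2420 runs of 20 to 45 kb (10.3%) and in 40 of 66 runs of 200 kb or more (60.6%). A longer run offers more bins, which by itself raises its highest bin. Within domains the level was uneven: the 5 kb bins of runs from 100 kb to under 200 kb varied about their run's mean with a coefficient of variation (CV) of 51.3%, taken from the covariance of plus-strand and minus-strand reads so that counting noise cancels. The same measure gave 119% in H3K4me3 and 21.8% in H3K9me3. In runs of 200 kb or more, the bin that was highest on the plus strand stood at a median of 2.76 times its run's mean on the minus strand. In the 2420 runs of 20 to 45 kb that median was 1.35 times, with a CV of 41.3%. A longer run again offers more bins to choose the highest from. An H3K27me3 domain of 100 kb or more was thus a raised stretch with peaks in it. H3K9me3 runs of like length were more even, also at 20 to 45 kb with a CV of 20.8%. Runs were cut at 2-fold on the same reads, and H3K9me3 runs lay closer to that cutoff. From 100 kb to under 200 kb their mean was 2.61-fold, beside 3.99-fold for H3K27me3. The part of this unlike height in the CVs was not tested.

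Domains and focal islands are named only if they hold no 5 kb bin high in all 4 libraries. The longest domain, on chromosome 5 between 35350001 and 35865000, was 515 kb long with a level of 3.93-fold (3.84 to 4.01). Its single bins went from 1.21-fold to 14.2-fold, with H3K4me3 at 0.902-fold. The second longest was 500 kb of chromosome 8 from 123565001 to 124065000. It also held the most reads above the mean of any such domain, 10392, at 6.01-fold (5.91 to 6.12). Of its 100 bins 96 were called. The other three of the 5 longest were on chromosome 8 from 12125001 to 12610000 (3.53-fold), chromosome 5 from 112075001 to 112520000 (3.71-fold) and chromosome 9 from 60760001 to 61145000 (3.25-fold). The last of these was the flattest of the 5, with bins from 1.74-fold to 5.64-fold. By reads above the mean, 3 shorter domains came next to the one on chromosome 8. These were 265 kb of chromosome 11 from 95935001 to 96200000 at 7.55-fold (7.39 to 7.71), 330 kb of chromosome 4 from 147480001 to 147810000 at 5.99-fold and 255 kb of chromosome 2 from 164725001 to 164980000 at 7.17-fold. The first of these 3 also carried H3K4me3 at 3.35-fold.

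The 5 focal islands with the highest bins were 10 or 15 kb long and also carried H3K4me3 and H3K9me3, the latter between 3.31-fold and 5.87-fold. On chromosome 12 from 100360001 to 100375000 the level was 8.94-fold (8.21 to 9.71), with 1 bin at 20.3-fold and H3K4me3 at 4.05-fold, inside a 500 kb bin of 1.56-fold. On chromosome 2 from 25395001 to 25405000 it was 13.4-fold with H3K4me3 at 11.9-fold, and as a whole this island stood above 5-fold in all 4 libraries, although it holds no single 5 kb bin that did. On chromosome 17 from 23465001 to 23480000 it was 10.3-fold with H3K4me3 at 7.38-fold. The islands on chromosome 3 from 131090001 to 131105000 and on chromosome 2 from 130265001 to 130280000 stood at 10.4-fold and 8.50-fold, with H3K4me3 at 8.81-fold and 2.58-fold. Over all runs, the mean H3K4me3 level was 3.995-fold in 5 kb runs and 1.39-fold in runs of 200 kb or more. Of the bins in these runs 31.0% and 11.9% were called for H3K4me3, where 6.57% of all bins were. The H3K9me3 level went the other way, from 1.86-fold to 2.39-fold. At least 1 called H3K4me3 bin was found in 31.0% of the 5 kb runs and in 95.5% of those of 200 kb or more. A longer run offers more bins for this. Over all domains H3K4me3 stood at 1.74-fold and H3K9me3 at 2.19-fold, and over all focal islands at 3.30-fold and 1.92-fold. The mean levels of H3K4me3 and H3K9me3 thus both changed with run length, in opposite directions. The part of these marks in the H3K27me3 values was not tested.

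Called 1 kb bins lay mostly in called 5 and 20 kb bins, and less so in wider ones. Bins called numbered 83014 of 1 kb (3.84% of those tested), 10871 of 20 kb (9.42%), 2178 of 100 kb (9.36%) and 399 of 500 kb (8.52%). Of the called 1 kb bins, 92.5% lay in a called 5 kb bin, 82.0% in a called 20 kb bin, 68.1% in a called 100 kb bin and 50.2% in a called 500 kb bin. Of the called 5 kb bins 58.0% lay in a called 100 kb bin and 42.6% in a called 500 kb bin, and of the called 20 kb bins 47.0% lay in a called 500 kb bin. In the other direction the cover was thin: called 1 kb bins made up 34.8% of the 1 kb bins within called 5 kb bins and 21.3% of those within called 500 kb bins. Among the wider bins, none of the 2178 of 100 kb or the 399 of 500 kb lacked a called 1 kb bin, while 122 of 20 kb and 9132 of 5 kb did. Wider bins count the reads of the narrower bins within them. These overlaps are thus in part set by the nesting and are a description. The 1 kb counts rest on depth, since 255901 bins stood at 2-fold or more and 83014 of them passed the Poisson value. With 50% of the reads 39653 did. H3K4me3 calls were 3.31%, 6.57%, 10.5%, 14.2% and 10.9% of bins from 1 to 500 kb, and H3K9me3 calls 1.13%, 8.08%, 6.10%, 4.39% and 2.26%. The called share of H3K27me3 thus changed little from 5 kb up, while that of H3K9me3 fell with width.

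Variation in H3K27me3 was spread over all length scales. The CV between bins, from the covariance of the strands, was 142% at 1 kb, 123% at 5 kb, 105% at 20 kb, 85.4% at 100 kb and 69.4% at 500 kb. Of the variance of the 1 kb level, 23.7% lay between 500 kb bins and 12.2% between 100 kb bins of the same 500 kb bin. A further 18.3% lay between 20 kb bins, 20.2% between 5 kb bins and 25.7% between 1 kb bins, each within the next wider bin. No single step held most of the variance. In H3K4me3, 57.6% of the variance lay between 1 kb bins of the same 5 kb bin and 3.97% between 500 kb bins, with a CV of 457% at 1 kb and 91.0% at 500 kb. In H3K9me3, 31.0% lay between 500 kb bins, with CVs of 87.9% and 48.9%. Without the highest 1% of 5 kb bins, the part between 500 kb bins was 35.9% for H3K27me3, 3.98% for H3K4me3 and 40.8% for H3K9me3. H3K27me3 lay between the other marks in this respect, with a share nearer to that of H3K9me3.

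**Figure D3:**
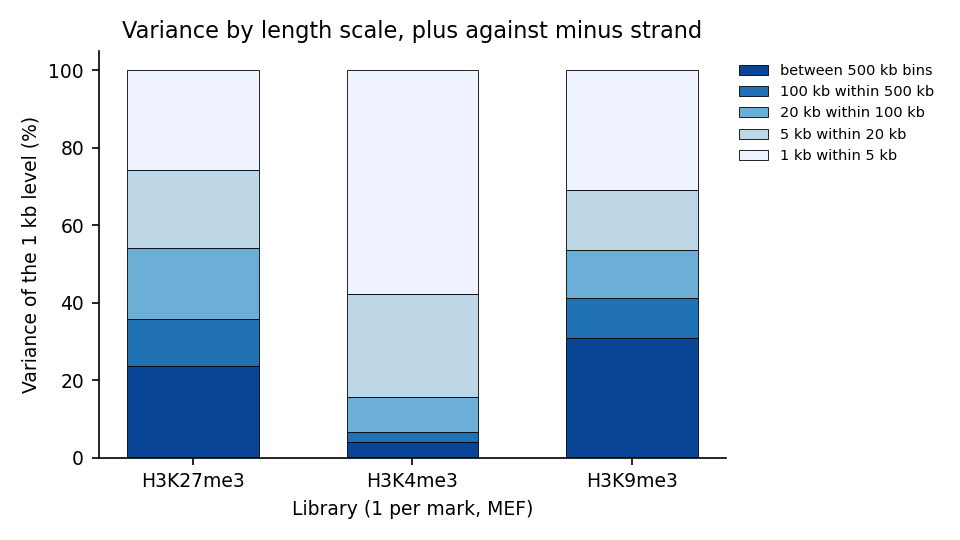
Stacked bars of the share (%) of the variance of the 1 kb level that lies between 500 kb bins and between narrower bins within the next wider ones, for 1 MEF library per mark, from the covariance of plus-strand and minus-strand reads. The part between 500 kb bins is 23.7% for H3K27me3, 3.97% for H3K4me3 and 31.0% for H3K9me3.

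Below 5 kb, H3K27me3 appeared only weakly peaked at this depth. In each fully covered 5 kb bin the 1 kb bin with the most plus-strand reads was taken, and its share of the bin's minus-strand reads was measured, where an even spread gives 20%. The share was 30.9% in islands of 5 kb, 28.8% in domains, 28.0% in domains of 100 kb or more and 25.7% outside runs. In H3K4me3 it was 60.5% in islands of 5 kb and 52.7% in domains. In H3K9me3 islands of 5 kb it was 27.1%, against 25.6% outside its runs. The share in H3K27me3 islands of 5 kb was therefore closer to an even 20% than to that in H3K4me3 islands. The pick rested on fewer reads in H3K27me3 islands, at a mean of 2.64-fold beside 8.63-fold in H3K4me3 islands. A noisier pick lowers the share, and how much of the difference is shape was not tested. Of such fully covered H3K27me3 islands 35.5% held no called 1 kb bin, a share that depth also limits.

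The fall-off around the highest bins was measured with separate reads for the choice and the value. Bins were chosen on plus-strand reads, and levels were taken from minus-strand reads, so that the choice does not raise the value by counting noise. Around the highest 1% of 5 kb bins (4448 bins), the mean level was 8.84-fold in the chosen bins, 5.88-fold at 5 kb, 4.47-fold at 10 kb, 3.89-fold at 15 kb and 2.66-fold at 50 kb. It then flattened, with 2.12-fold at 100 kb, 1.92-fold at 200 kb, 1.81-fold at 500 kb, 1.58-fold at 1000 kb and 1.504-fold at 2000 kb. The excess over the library mean was down to 50% at 8.41 kb, to 25% at 35.4 kb and to 10% at 262 kb. Over the 19 autosomes the mean at 100 kb was 1.97 ± 0.413-fold (mean ± SD over autosomes), between 1.13-fold and 2.59-fold. Medians were lower than means, at 7.81-fold in the chosen bins, 1.54-fold at 100 kb and 1.06-fold at 2000 kb.

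The higher the bins, the steeper was the fall. Around the highest 0.1% (453 bins) the mean went from 17.2-fold to 9.48-fold at 5 kb and 2.04-fold at 100 kb, and 50% of the excess was left at 5.51 kb. Around the highest 10% (47376 bins) it went from 3.31-fold to 2.90-fold and 1.93-fold, with 50% left at 47.4 kb. Far from the chosen bins the 3 nested classes were much alike, at 1.86-fold, 1.81-fold and 1.66-fold at 500 kb for the highest 0.1%, 1% and 10%. In 1 kb bins, the highest 1% stood at 9.90-fold and their neighbours at 8.03-fold at 1 kb, 5.02-fold at 5 kb and 3.30-fold at 20 kb. Bins high in all 4 libraries were kept in these classes, and their part in the highest 0.1% was not tested. By autosome, the mean of the chosen bins in the highest 0.1% of 5 kb bins lay between 15.2-fold and 34.6-fold.

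Around the highest 1% of 5 kb bins, H3K27me3 fell off over longer distances than H3K4me3 and shorter ones than H3K9me3. This order did not hold at every width, nor for H3K9me3 at like height. For the highest 1% of 1 kb bins 50% of the excess was left at 3.90 kb for H3K27me3 and 2.31 kb for H3K9me3, and for 500 kb bins at 427 kb for H3K27me3 and 536 kb for H3K4me3. Around the highest 1% of H3K4me3 bins the mean went from 24.1-fold to 3.78-fold at 5 kb and 2.43-fold at 10 kb, with 50% of the excess left at 2.84 kb. That is under the 5 kb width, so it is a value drawn between bins. Around those of H3K9me3 it went from 3.54-fold to 2.64-fold at 5 kb and 1.69-fold at 100 kb, with 50% left at 13.0 kb and 25% at 145 kb. At 2000 kb the H3K27me3 mean was 1.504-fold, beside 1.37-fold for H3K4me3 and 1.34-fold for H3K9me3. The highest 1% were of unlike height, at 8.84-fold for H3K27me3 and 3.54-fold for H3K9me3. The highest 10% of H3K27me3 5 kb bins, at 3.31-fold, were nearer in height to the latter. Around them 50% of the excess was left at 47.4 kb, against the 13.0 kb of H3K9me3.

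**Figure D4:**
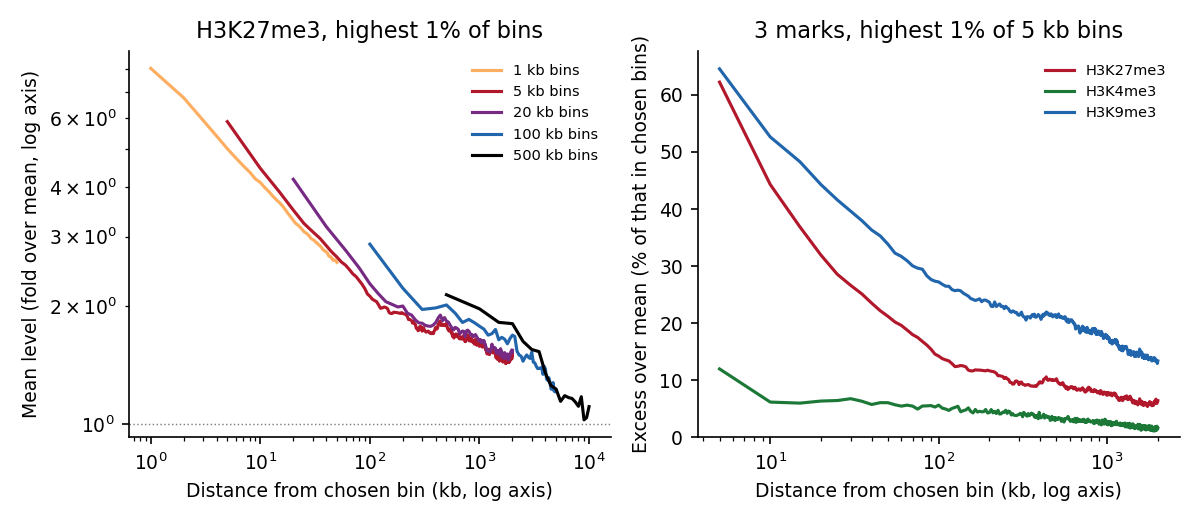
Left, mean minus-strand level (fold over mean, log axis) against distance (kb, log axis) from the highest 1% of H3K27me3 bins chosen on plus-strand reads, for 5 bin widths. Right, excess over the mean as a share (%) of that in the chosen 5 kb bins against distance (kb, log axis) for the 3 MEF libraries, where 50% is left at 8.41 kb for H3K27me3 and 13.0 kb for H3K9me3, and H3K4me3 is under 50% from the first neighbour at 5 kb.

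The distance at which 50% was left changed with the bin width. For the highest 1% of bins at each width, 50% of the excess was left at 3.90 kb for 1 kb bins, 8.41 kb for 5 kb bins, 22.5 kb for 20 kb bins, 89.1 kb for 100 kb bins and 427 kb for 500 kb bins. At 100 and 500 kb it lies within the first bin step, so there it is drawn between the chosen bin and its first neighbour and set largely by the bin width. The distance at which 10% was left was 262 kb for 5 kb bins, 1112 kb for 20 kb bins, 3226 kb for 100 kb bins and 4393 kb for 500 kb bins. At 5000 kb from the 47 highest 500 kb bins the mean was 1.23-fold, and at 10000 kb it was 1.11-fold.

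Part of the distant excess was in further runs and part in bins outside them. At 5 kb from the highest 1% of 5 kb bins, 80.1% of bins were called on the choosing strand. The share was 50.9% at 20 kb, 36.2% at 50 kb, 20.8% at 500 kb and 16.9% at 1000 kb, against 6.70% of all bins on that strand. Uncalled bins alone stood at a mean of 1.81-fold at 5 kb, 1.49-fold at 20 kb, 1.23-fold at 100 kb and 1.06-fold at 1000 kb, where all uncalled bins had a mean of 0.766-fold. At 2000 kb they stood at 0.994-fold, so uncalled bins around the highest bins were raised as well. Focal islands lay near domains: 31.8% of the 9203 islands were within 50 kb of a domain, against 10.7% of 5 kb bins outside runs, and 86.9% against 53.7% were within 1000 kb. The median distance was 115 kb for islands and 840 kb for bins outside runs. Islands and domains are cut from the same called bins, and a gap of more than 1 uncalled bin splits a run. Some islands therefore lie beside domains by the joining rule, and these distances are a description.

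Single strong bins differed in how far the signal reached. With all bins kept, the highest 5 kb bin stood at 189-fold, but bins high in all 4 libraries were left out here. The highest 5 kb bin among the others, on chromosome 9 from 62940001 to 62945000, held 722 reads, or 34.8-fold (32.3 to 37.4). Its neighbours at 5 kb stood at 17.8-fold and 20.97-fold, those at 20 kb at 1.78-fold and 2.70-fold, and those at 50 kb at 1.01-fold and 0.627-fold, so by 50 kb the level was near or under the library mean. On chromosome 2 from 31460001 to 31465000 the level was 31.3-fold (28.9 to 33.8), with 25.7-fold and 9.26-fold at 5 kb and 1.01-fold and 1.06-fold at 50 kb. Farther from it the level was high again in places, with 2.70-fold at 100 kb before and 8.58-fold at 200 kb after. On chromosome 15 from 99050001 to 99055000 it was 28.3-fold, with 6.75-fold and 10.8-fold at 5 kb. The fall could be uneven. On chromosome 15 from 98615001 to 98620000, at 27.6-fold, the bin before stood at 1.21-fold and the bin after at 18.2-fold, while at 10 kb the levels were 7.18-fold and 8.92-fold. On chromosome 5 from 140160001 to 140165000, at 26.8-fold, levels of 2.41-fold and 3.52-fold remained at 50 kb. These 5 bins were raised in the other libraries too, with H3K9me3 at 4.96-fold or more in each. H3K9me3 of secondary MEF lay between 3.55-fold and 5.57-fold, and H3K4me3 between 1.69-fold and 14.6-fold. The bin on chromosome 9 was under 5-fold in H3K4me3 only, at 4.37-fold. The part of what the libraries share in these 5 kb values was not tested.

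The ranking changed with the width of the window. In 1 kb bins the 5 highest were on chromosome 9 from 62944001 (58.8-fold, 51.7 to 66.7), chromosome 6 from 30124001 (55.9-fold), chromosome 15 from 98619001 (55.7-fold), chromosome 5 from 31371001 (48.9-fold) and chromosome 2 from 119017001 (47.2-fold). All 5 were raised in the other libraries too, with H3K4me3 between 8.45-fold and 31.5-fold, H3K9me3 between 8.61-fold and 11.6-fold and H3K9me3 of secondary MEF between 4.50-fold and 8.72-fold. Bins high in all 4 libraries by their 5 kb level, and wider bins that hold one, were left out of the ranking. With them kept, the highest level was 304-fold in 1 kb, 74.1-fold in 20 kb and 16.1-fold in 100 kb bins. The part of what the libraries share in the 1 kb values named here was not tested. In 20 kb bins the 5 highest were on chromosome 9 from 62940001 (16.9-fold), chromosome 6 from 30120001 (16.7-fold), chromosome 5 from 29800001 (16.2-fold), chromosome 19 from 45280001 (16.0-fold) and chromosome 2 from 105460001 (15.8-fold). The third of these lay in a 500 kb bin of 1.56-fold, so a very high 20 kb bin could sit in nearly average surroundings.

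In 100 kb bins, with the same bins left out, the 5 highest were on chromosome 19 from 45200001 (8.73-fold, 8.44 to 9.03), chromosome 1 from 74800001 (8.69-fold), chromosome 11 from 97300001 (8.56-fold), chromosome 8 from 125500001 (8.30-fold) and chromosome 8 from 123900001 (7.98-fold). The intervals of neighbours in this order overlap, and all 20 of the 5 kb bins were called in the bins on chromosomes 1 and 8. In 500 kb bins they were on chromosome 8 from 123500001 (5.91-fold, 5.81 to 6.02), chromosome 2 from 164500001 (5.25-fold, 5.15 to 5.35), chromosome 15 from 102500001 (4.90-fold), chromosome 11 from 96000001 (4.77-fold) and chromosome 19 from 44500001 (4.43-fold). The first of them had 90 called 5 kb bins of 100, and its neighbours at 500 kb stood at 2.81-fold and 2.98-fold. At 2000 kb they stood at 0.807-fold and 3.597-fold, so at that distance the level was raised on 1 side only. Around the bin on chromosome 11 levels of 2.09-fold and 3.56-fold remained at 2000 kb.

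Levels dropped at run edges and stayed above the library mean outside them. Runs were set on plus-strand reads and levels taken from minus-strand reads. In 175 runs of 100 kb or more, the mean was 4.33-fold in the second bin inside the edge, 3.52-fold in the last bin inside and 1.89-fold in the first bin outside. The first bins outside a run had to be uncalled on the choosing strand, which holds them down. Farther out the mean was 2.09-fold at 100 kb, 2.02-fold at 500 kb and 1.86-fold at 1000 kb. Around runs of 5 kb the first bin outside stood at 1.59-fold, and the mean was 1.51-fold at 100 kb and 1.28-fold at 1000 kb. At each of these distances the surroundings of long runs stood higher than those of single-bin runs.

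The megabase background, the level of a 500 kb bin over its uncalled 5 kb bins, was itself uneven. Over 4528 bins of 500 kb it had a mean of 0.715-fold, an SD of 0.345 and a 10th to 90th percentile of 0.249-fold to 1.18-fold. Its CV from the covariance of the strands was 48.2%, a measure in which counting noise cancels. Neighbouring 500 kb bins were alike, with a correlation along the chromosome of 0.754 at 0.5 Mb, 0.575 at 1 Mb, 0.389 at 2 Mb, 0.101 at 5 Mb and 0.029 at 10 Mb. The highest background, outside 500 kb bins with a position high in all 4 libraries, was on chromosome 1 from 91000001, chromosome 8 from 10500001 and chromosome 8 from 128000001. It stood at 1.57-fold, 1.55-fold and 1.55-fold there, and the call itself keeps it under 2-fold. These bins held 45, 39 and 43 called 5 kb bins. The lowest were on chromosome 4 from 143000001, chromosome 7 from 12500001 and chromosome 6 from 130000001, at 0.0813-fold (0.0649 to 0.101), 0.0869-fold (0.0701 to 0.106) and 0.0882-fold (0.0719 to 0.107), from 85, 93 and 101 reads. With two-location reads at a weight of 0.5 these levels were 0.165-fold, 0.136-fold and 0.117-fold, in reversed order, and with no correction for covered bins 0.0456-fold, 0.0499-fold and 0.0542-fold. In these 3 bins 252, 258 and 276 of 500 kb were covered, and H3K4me3 was between 0.0671-fold and 0.0716-fold.

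Background and called bins rose together. In the 1689 bins of 500 kb with no called 5 kb bin (37.3%) the background was 0.400 ± 0.191-fold (SD over bins). With 1 to 4 called bins it was 0.685-fold, with 10 to 19 it was 1.02-fold and with 40 or more it was 1.23 ± 0.164-fold. Bins of 500 kb with under 250 kb of covered uncalled sequence have no background value, which leaves the bins richest in calls out of the last class. Bins that hold called bins were chosen on the same reads, so this is a description. Restricted to uncalled bins more than 20 kb from any called bin, the background was 0.653-fold with 1 to 4 called bins, 0.827-fold with 5 to 9 and 0.827-fold with 10 to 19. With 20 to 39 it was 0.789-fold over the 24 of 534 bins that had enough such sequence. Enough was left in 459 of 508 bins with 5 to 9 called bins and in 235 of 537 with 10 to 19. In the bins that kept such sequence, the background at that distance rose no further from 5 called bins up. Over all bins uncalled for H3K27me3, near and far, which include bins called for the other marks, H3K4me3 went from 0.349-fold with no called bin to 1.91-fold with 20 to 39, and H3K9me3 from 0.540-fold to 1.31-fold. Over 4195 bins of 500 kb, in 5 kb bins called for none of the 3 marks, the background of H3K27me3 correlated with that of H3K9me3 at 0.957 and with that of H3K4me3 at 0.858. The points share the flow cell, the mappable sequence and its base composition, and H3K27me3 background also correlated with the number of covered 1 kb bins at 0.711. The part of these in the background was not tested.

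**Figure D5:**
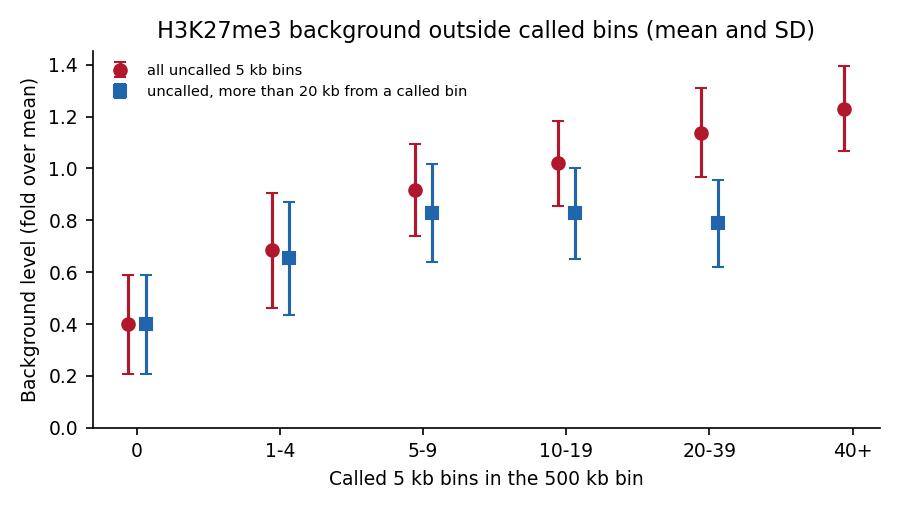
H3K27me3 background (fold over mean, mean and SD over 500 kb bins) against the number of called 5 kb bins in the 500 kb bin, for all uncalled 5 kb bins and for those more than 20 kb from a called bin. The first goes from 0.400-fold with no called bin to 1.23-fold with 40 or more, and the second is 0.827-fold with 5 to 9 called bins and 0.789-fold with 20 to 39.

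Chromosomes differed in domains more than in islands. The level of a whole autosome lay between 0.771-fold on chromosome 3 and 1.36-fold on chromosome 11. Domains held 13.1% of the reads of chromosome 3 and 41.8% of those of chromosome 11, with 7.55 and 28.6 domains per 10 Mb of covered sequence. The SD over the 19 autosomes was 8.21 percentage points for domains and 0.954 for focal islands, which lay between 7.26% on chromosome 4 and 11.8% on chromosome 17. Outside runs, the level lay between 0.632-fold on chromosome 16 and 0.837-fold on chromosome 11.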

How the data were processed

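The deposited values are signed read positions. The authors used Bowtie against mm8, per the file headers (options -e 70, -k 2, -m 2, -n 2, -l 36, --best, --concise; version not given), and list reads with 1 or 2 locations. Positions carry no normalisation. Positions were read as leftmost ends, because minus-strand positions on the mitochondrial chromosome go down to 19 in 1 library, and a read length of 36 bases was assumed. Per the labels' protocols, chromatin averaged 500 bp, was amplified over 18 cycles and cut from a gel at 150 to 350 bp. Autosomal single-location reads were counted once per position and strand after a shift of 75 bp in the 3' direction (Python 3.11.15, numpy 2.4.6, scipy 1.17.1). Bins under 50% covered were left out. A 1 kb bin without a read in any library may be unmappable or only poor in reads. Distances at which part of the excess is left were drawn linearly between bins.

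Regions named are the 5 highest bins per width, 5 longest and 5 richest domains, 5 highest islands and 3 highest and lowest backgrounds, outside bins high in all 4 libraries. Members, thresholds and lists were chosen with earlier results of these data known. The 4 layers, run texture, edges, distances to domains, shares of 1 kb bins and profiles of single bins were added after seeing the data. The scripts were tested on simulated data. Alternatives covered repeated reads, two-location reads, the shift, thresholds, covered bins, bin offset, depth, domain length, bridging, strands and chromosome X. Two-location reads, chromosomes X and Y and input libraries were outside the main counts or not used here.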

Additional observations from a re-analysis of the deposited data

Results flagged for a closer look

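Chromosome X, outside the autosomal counts, held 210992 distinct H3K27me3 reads. Its level was 0.441-fold of the autosomal mean per covered kb, and 1.29% of its 5 kb bins stood at 2-fold or more over that mean, beside 10.0% of autosomal ones. H3K4me3 and H3K9me3 held 204937 and 194588 distinct reads on chromosome X, beside 10989113 and 8533453 on the autosomes. A low count on X was thus not particular to H3K27me3. Of 407074 distinct placements of two-location reads on covered autosomal bins, 18.3% lay in domains and focal islands, beside 37.8% of single-location reads. The runs were called on the single-location reads, which raises the latter share. Domains and focal islands made up 8.12% and 3.13% of the covered sequence. In domains the two-location placements stood at 1.63-fold of their own mean per covered kb. The values of chromosome X and of two-location reads are signals in reads that the comparisons did not use.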

How the results depend on the processing

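Shares of reads are given in the order domains, focal islands and rest, where the values reported were 29.0%, 8.82% and 62.2%. With all reads kept they were 29.2%, 8.99% and 61.9%, with two-location reads at a weight of 0.5 they were 28.5%, 8.69% and 62.8%, and without bins high in all 4 libraries 28.9%, 8.76% and 62.3%. With chromosome X they were 29.4%, 8.79% and 61.8%, with no correction for covered bins 33.5%, 8.85% and 57.7%, with no bridging 22.6%, 13.6% and 63.8%, and with 50% of the reads 21.5%, 9.09% and 69.4%. At 3-fold and an adjusted value under 1e-06, changed together, they were 14.9%, 7.86% and 77.3%. Domains and islands held 29.1% and 8.75% with no shift, 29.0% and 8.75% with bins moved by 252.5 kb, and 18.9% and 18.9% with domains of 50 kb or more. Under the same pair of stricter thresholds, calls fell to 41748, 18406, 4464, 767 and 68 bins from 1 to 500 kb, with 1510 domains and 5193 islands. Domains of 50 kb or more numbered 1112, islands without bridging 14318 and 1 kb calls with 50% of the reads 39653.

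The variance between 500 kb bins (23.7%) was 19.2% with all reads, 23.5% with two-location reads, 24.1% with no shift, 25.2% with no correction, 23.9% with moved bins, 25.6% without bins high in all 4 and 24.3% with X. The distance at which 50% of the excess was left (8.41 kb) was, in that order, 8.23, 8.37, 8.44, 8.82, 8.19, 8.46 and 8.63 kb, then 8.58 kb with 50% of the reads and 8.37 kb with strands swapped. The SD of the background (0.345) was 0.372 with no correction, 0.346 without bins high in all 4 and 0.262 more than 20 kb from called bins. Of the layers chosen after seeing the data, the floor and broad layer were 14.9% and 59.8% with the floor at the 1st percentile. Without bins high in all 4, floor, broad layer, islands and domains were 24.3%, 50.5%, 5.48% and 19.7%. Of 184 values of single regions, 46 moved beyond their counting interval, and with no correction 5 of 46 stayed within it. Causes were not tested. No paired analysis was possible because each group has 1 library. At 1 kb, depth limits the calls.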
